A study of Zea mays with 12 samples.

Results

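Heat shock proteins are molecular chaperones, and heat shock factors are the transcription factors that switch their genes on when proteins unfold. In plants, HSP101 pulls aggregated proteins apart, HSP90 and HSP70 fold client proteins, and small heat shock proteins hold partly unfolded proteins until other chaperones take over. In seeds the same proteins also accumulate without heat, as part of normal development. 6 such maize genes are described here: Hsf26 (GRMZM2G003489), a heat shock factor gene, hsp101 (GRMZM2G360681), the HSP90 genes hsp82 (GRMZM5G833699) and HSP90-1 (GRMZM2G024668), an Hsp70 gene (GRMZM2G310431) and the small heat shock protein gene hsp22 (GRMZM2G007729). They are 6 of the 34348 genes listed, and all 6 were among the 26706 genes that passed the filter on low values (1 RPKM or more on average in any genotype). The 6 were picked by name because of their levels in these same libraries, so their values are given as a description with no test. In the RefSeq table of the B73 reference assembly Zm-B73-REFERENCE-NAM-5.0 they lie on 5 chromosomes. HSP90-1 and Hsf26, which share a chromosome, are 1798 genes apart in that order, and hsp82 lies 789 genes from nkd2.

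The samples were whole maize endosperms of the inbred W22 taken 16 days after pollination from self-pollinated plants grown in the field. Each genotype, wild type (WT), nkd1-Ds or nkd2-Ds, was represented by 4 libraries. The mutants carry Ds transposon alleles of nkd1 and nkd2, duplicate zinc finger transcription factor genes that act in the aleurone, the outermost endosperm cell layer. Levels are RPKM, reads per kilobase of gene relative to a factor for each library, as the authors deposited them. Differences are on the log2(RPKM + 1) scale with their standard error (SE), on which low genes change by less than their true fold. The SE of a gene rests on a single spread pooled over the genotypes, so it is the same in each comparison. Where the genotypes are unequally uneven, it overstates the error of the steadier ones and understates that of the more uneven.

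The targeted genes were checked against the labels. The mean level of nkd1 was 49.2 RPKM in WT, 12.8 RPKM under the label nkd1-Ds and 35.1 RPKM under nkd2-Ds, and that of nkd2 was 19.5, 1.10 and 1.14 RPKM. Because nkd2 was as low in the nkd1-Ds libraries as in the nkd2-Ds libraries, the former are referred to as the libraries labelled nkd1-Ds. Each direction given for them therefore applies to endosperm low in both transcripts. Recovered reads came to 35.3 to 48.0 megareads per library. Zein storage protein genes took 42.1% to 48.3% of the reads in WT, 27.3% to 29.1% in libraries labelled nkd1-Ds and 36.8% to 49.7% in nkd2-Ds. Summed levels of 6 aleurone marker genes were 112.7 to 121.2, 62.4 to 64.7 and 83.1 to 88.6 RPKM in the same order. That list holds nkd1 and nkd2 themselves, so the sums include the fall of the targeted genes. The other markers did not fall together. In libraries labelled nkd1-Ds the log2 difference from WT was 0.43 for dek1, -0.47 for vp1, -0.08 for sal1 and 0.08 for cr4. In nkd2-Ds it was 0.21, 0.02, 0.03 and -0.10. The most abundant of them, sal1, averaged 32.8, 30.9 and 33.4 RPKM in WT, libraries labelled nkd1-Ds and nkd2-Ds. The part of zein share and cell makeup in the results was not tested. In whole tissue, fewer cells of a type and less RNA per cell cannot be told apart.

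In the libraries labelled nkd1-Ds all 6 genes stood above every WT library. Of all genes tested, 24.5% were higher with no overlap in this comparison. Since these values chose the genes, nothing is read from that count. The differences ranged from 1.64 on the log2 scale for the Hsp70 gene to 5.48 for hsp82. Among the 26706 genes tested, hsp82 had the 3rd largest log2 rise, hsp22 the 21st, HSP90-1 the 35th, hsp101 the 37th, Hsf26 the 62nd and the Hsp70 gene the 424th. These ranks hold for log2(RPKM + 1), which places low genes lower. By mean RPKM the rise was 21.8-fold for Hsf26, 15.8-fold for hsp22, 12.6-fold for HSP90-1 and 11.8-fold for hsp101. Nothing is read from the ranks either.

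Hsf26, the only transcription factor among the 6, was close to silent in WT, at 0.621, 0.553, 0.510 and 0.567 RPKM in replicates 1 to 4, which rests on 30 to 38 reads. The libraries labelled nkd1-Ds had 11, 11.2, 12.7 and 14.1 RPKM, from 811 to 1123 reads. The nkd2-Ds libraries had 0.661, 0.318, 1.31 and 1.02 RPKM, from 19 to 81 reads. The nkd2-Ds values thus lay on both sides of the WT range, with replicate 2 below it and the others above. Mean RPKM in the libraries labelled nkd1-Ds was 21.8-fold that of WT. The log2 difference from WT was 3.08 ± 0.144 (pooled SE, n = 4 per group) in these libraries. In nkd2-Ds it was 0.20 ± 0.144.

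For hsp101, the disaggregating chaperone, WT had 13.5, 15.8, 11.6 and 16.3 RPKM. It reached 175.9, 153.7, 155.6 and 192.1 RPKM in libraries labelled nkd1-Ds, and 24.8, 22.7, 84.2 and 61.4 RPKM in nkd2-Ds. No nkd2-Ds library overlapped either of the other genotypes, yet replicates 3 and 4 stood well above replicates 1 and 2. The log2 difference from WT was 3.48 ± 0.327 in the libraries labelled nkd1-Ds and 1.48 ± 0.327 in nkd2-Ds.

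The HSP90 genes hsp82 and HSP90-1 differed in their WT level. hsp82 had 1.52, 2.81, 0.629 and 1.34 RPKM in WT, from 49 to 249 reads, against 104.4, 103.5, 106.7 and 120.6 RPKM in libraries labelled nkd1-Ds. In nkd2-Ds hsp82 had 4.43, 3.53, 13.04 and 9.08 RPKM. Its nkd2-Ds libraries all lay above WT, but far below those labelled nkd1-Ds. The mean RPKM of hsp82 was 69.1-fold that of WT in the libraries labelled nkd1-Ds and 4.78-fold in nkd2-Ds, with log2 differences of 5.48 ± 0.316 and 1.64 ± 0.316.

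HSP90-1 held a narrow range in WT, at 13.7, 14.7, 13.95 and 13.96 RPKM. The libraries labelled nkd1-Ds had 187.5, 179.3, 173.5 and 168.2 RPKM, and the nkd2-Ds libraries 27.6, 32.7, 70.3 and 70.1 RPKM. Here too the genotypes did not overlap, and the highest nkd2-Ds libraries were replicates 3 and 4. The log2 difference of HSP90-1 from WT was 3.56 ± 0.243 in the libraries labelled nkd1-Ds and, in nkd2-Ds, 1.64 ± 0.243. The SD of its log2(RPKM + 1) was 0.040 in WT, 0.066 in libraries labelled nkd1-Ds and 0.699 in nkd2-Ds. The shared SE thus comes mostly from nkd2-Ds.

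The Hsp70 gene was the most abundant of the 6 per kilobase in every library, with 173.5, 176.8, 132.2 and 135.6 RPKM in WT. Its level was 523.5, 464.5, 448.2 and 481.9 RPKM in libraries labelled nkd1-Ds and 188.2, 178.7, 290.3 and 241.9 RPKM in nkd2-Ds. The lowest nkd2-Ds library was only 1.01-fold the highest WT library, so this separation is narrow. The log2 differences of 1.64 ± 0.146 and 0.52 ± 0.146 were the smallest of the 5 chaperone genes.

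hsp22 had 18.7, 17.99, 9.93 and 11.4 RPKM in WT and 253.4, 235.1, 215.5 and 214.0 RPKM in libraries labelled nkd1-Ds. In nkd2-Ds it had 20.2, 19.9, 79.1 and 68.4 RPKM. Replicates 1 and 2 of nkd2-Ds were barely above the highest WT library, by 1.07-fold at the nearest, while replicates 3 and 4 were far above it. The log2 differences from WT were 3.94 ± 0.392 and 1.40 ± 0.392.

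**Figure D1:**
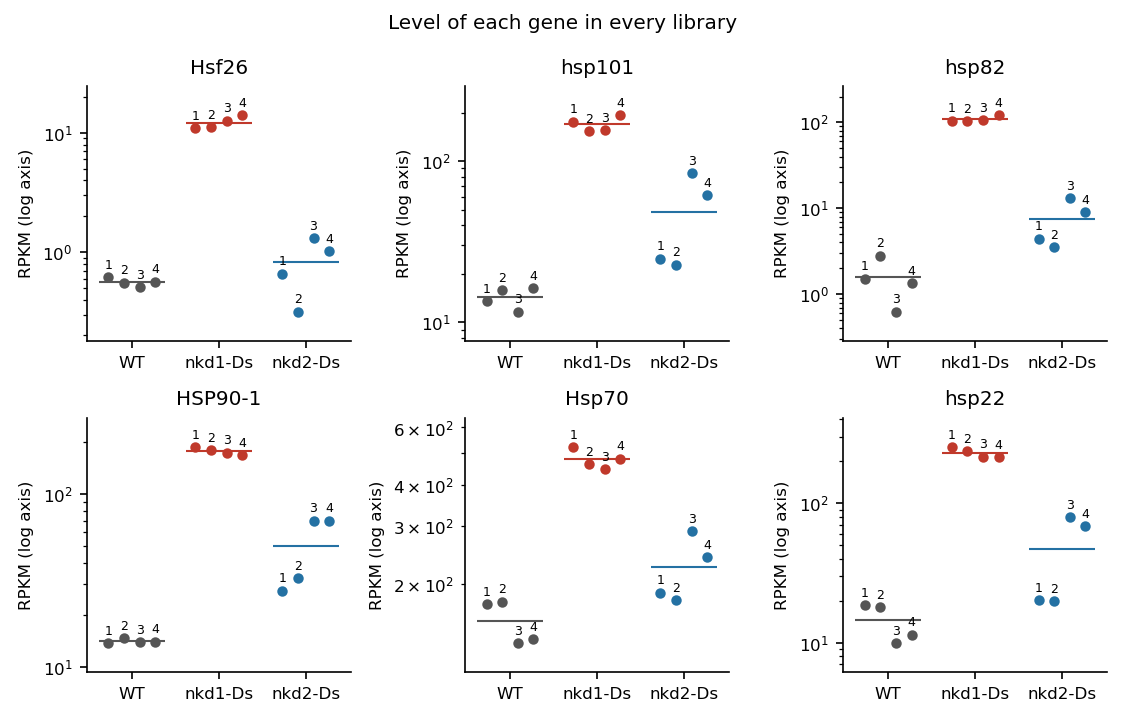
RPKM (log axis) of each of the 6 genes in the 12 libraries, with a panel per gene, replicate numbers above the points and a horizontal line at the mean of each genotype. All 6 genes are highest in the libraries labelled nkd1-Ds, and in nkd2-Ds replicates 3 and 4 lie above replicates 1 and 2 for each gene.

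In nkd2-Ds 5 of the 6 genes stood above every WT library, where 11.9% of all genes tested did, and Hsf26 overlapped WT. All 6 were below every library labelled nkd1-Ds, where 18.4% of all genes were. The order WT, nkd2-Ds, nkd1-Ds with no overlap was held by 5 of the 6 and by 2.65% of all genes. Because the genes were picked on levels in these libraries, nothing is read from those counts. The comparisons of the mutants with WT share the WT libraries and are given side by side for that reason only. Taken directly, nkd2-Ds was lower than the libraries labelled nkd1-Ds by log2 differences from -1.12 ± 0.146 for the Hsp70 gene to -3.83 ± 0.316 for hsp82.

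The 4 nkd2-Ds libraries were unlike each other in these genes. Replicate 3 was highest and replicate 4 next for all 6 genes. Replicate 2 was lowest for Hsf26, hsp101, hsp82, the Hsp70 gene and hsp22, and replicate 1 was lowest for HSP90-1. The highest library was 4.13-fold the lowest for Hsf26, 3.98-fold for hsp22, 3.70-fold for hsp101, 3.69-fold for hsp82, 2.55-fold for HSP90-1 and 1.62-fold for the Hsp70 gene. Replicates 3 and 4 were both above replicates 1 and 2 for 21.6% of all genes tested, and both more than 2-fold above for 0.315%. hsp101, hsp82, HSP90-1 and hsp22 met the stricter condition. Nothing is read from this either, as the genes were picked on levels in these libraries.

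Expressed as an SD of log2(RPKM + 1), the spread among the nkd2-Ds libraries was 1.06 for hsp22, 0.919 for hsp101, 0.761 for hsp82 and 0.699 for HSP90-1, against a median of 0.136 over all genes. The share of tested genes that varied at least as much was 0.483% for hsp22, 0.655% for hsp101, 1.01% for hsp82 and 1.18% for HSP90-1. It was 6.88% for Hsf26 and 8.51% for the Hsp70 gene. Those shares too describe genes picked on these libraries, and nothing is read from them. Among the libraries labelled nkd1-Ds the 6 genes were steady, with the highest library 1.11-fold to 1.28-fold the lowest. In WT hsp82 and hsp22 were uneven too. The highest WT library was 4.47-fold the lowest for hsp82 and 1.88-fold for hsp22, with SDs of 0.503 and 0.429, which 1.89% and 2.89% of tested genes reached. For the other 4 genes it was 1.07-fold to 1.40-fold.

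Other measures also differed between the nkd2-Ds libraries. In replicates 1 to 4 the zein share was 49.7%, 43.6%, 38.6% and 36.8%. The summed level of 4 embryo markers in these libraries was 127.9, 164.0, 203.5 and 239.8 RPKM, against 80.4 to 94.3 RPKM in WT and 68.5 to 98.9 RPKM in the libraries labelled nkd1-Ds. Of those 4 markers, the storage globulin gene glb1 and the oleosin gene ole16 were higher than WT in nkd2-Ds. The others, wox2a and lg3, were not called, at log2 differences of -0.08 (limma adjusted p = 0.591) and 0.26 (adjusted p = 0.300). No embryo marker was at 0 on average in any genotype. The summed level of 6 markers of the embryo-surrounding region was 0.325, 3.57, 7.23 and 19.8 RPKM in the nkd2-Ds libraries. That of 4 basal transfer layer markers was 19.0, 89.7, 74.5 and 191.1 RPKM, and that of 7 starchy endosperm markers 30769, 23895, 20221 and 19615 RPKM. Most of the starchy endosperm sum was fl2, with a mean of 16138 RPKM in nkd2-Ds. On the same list, o2 had 309.0, 297.5, 430.8 and 377.1 RPKM in these libraries and did not follow the sum. The summed level of the aleurone markers was 87.6, 88.6, 88.0 and 83.1 RPKM. Over all genes, replicate 1 stood far from replicates 3 and 4, at a chi-square per gene of 66.5 and 85.9, where replicates 3 and 4 differed by 10.6. Replicate 2 lay between, at 25.01 from replicate 1, 22.4 from replicate 3 and 32.6 from replicate 4. It was thus no nearer to replicate 1 than to replicate 3, unlike the split seen in the 6 genes. Whether these differences had a part in the spread of the 6 genes was not tested.

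Each nkd2-Ds library was placed between the WT mean (0%) and the mean of the libraries labelled nkd1-Ds (100%) on the log2 scale. hsp101 stood at 22.0%, 18.5%, 71.5% and 58.5% in replicates 1 to 4. HSP90-1 stood at 25.9%, 32.5%, 62.9% and 62.8%, and hsp22 at 12.7%, 12.1%, 61.4% and 56.1%. hsp82 stood at 20.9%, 16.1%, 45.9% and 37.1% and the Hsp70 gene at 18.1%, 13.5%, 56.05% and 40.0%. Hsf26 was the lowest of the 6 in each library on this scale, at 2.88%, -7.98%, 18.4% and 12.1%. For comparison, the median over the 1181 other genes called at least 2-fold higher in the libraries labelled nkd1-Ds (with the 6, 4.44% of all genes tested) was 27.1%, 30.7%, 41.9% and 44.1%. The 5 chaperone genes were below that median in replicates 1 and 2, except HSP90-1 in replicate 2, and above it in replicates 3 and 4, except hsp82 and the Hsp70 gene in replicate 4. On the RPKM scale with no log the positions were lower, at 2.66%, 1.83%, 10.7% and 7.0% for hsp82 and at 6.78%, 5.44%, 45.1% and 30.4% for hsp101.

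**Figure D2:**
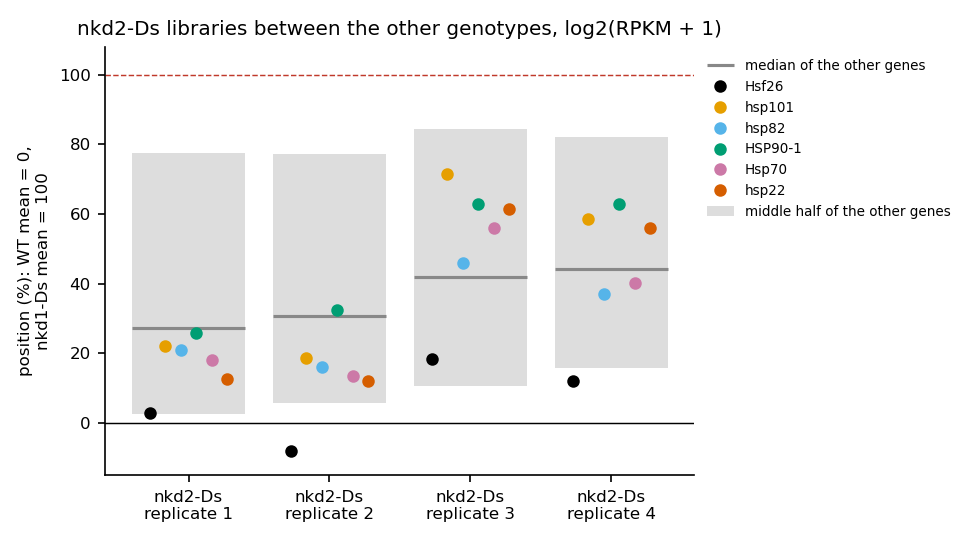
Position of each nkd2-Ds library between the WT mean (0%, solid line) and the mean of the libraries labelled nkd1-Ds (100%, dashed line) on the log2(RPKM + 1) scale, with a point per gene. Grey boxes span the middle of the distribution, from lower to upper quartile, of the 1181 other genes called at least 2-fold higher, with a line at the median. The chaperone genes lie higher in replicates 3 and 4, and Hsf26 lies lowest in all 4 libraries.

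To ask how far the 6 genes moved together within a genotype, each library was expressed as a deviation from its genotype mean. Over the 12 libraries the 15 gene pairs had a median correlation of 0.868, from 0.698 for Hsf26 with the Hsp70 gene to 0.933 for the Hsp70 gene with hsp22. These points share a library and its scaling, and no test was made. The correlation was lower without the nkd2-Ds libraries. Over the 8 other libraries the median was 0.364, from -0.83 for Hsf26 with HSP90-1 to 0.954 for the Hsp70 gene with hsp22, and 13 of the 15 pairs were above 0.

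The next highest correlations without nkd2-Ds were 0.731 for hsp82 with the Hsp70 gene, 0.724 for hsp82 with hsp22 and 0.683 for hsp82 with hsp101. In WT hsp82, the Hsp70 gene and hsp22 were higher in replicates 1 and 2 than in replicates 3 and 4. The zein share in WT was 42.5%, 42.1%, 48.3% and 47.2% in replicates 1 to 4, so within WT as within nkd2-Ds the pair of libraries with the lower zein share had the higher hsp22 level. The libraries labelled nkd1-Ds ran the other way, with zein shares of 29.1%, 28.7%, 27.3% and 28.2% and the higher hsp22 levels in replicates 1 and 2. HSP90-1, whose WT libraries differed by 1.07-fold at most, and Hsf26, at 1.22-fold, did not follow this split, nor did hsp101, which was highest in WT replicate 4.

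**Figure D3:**
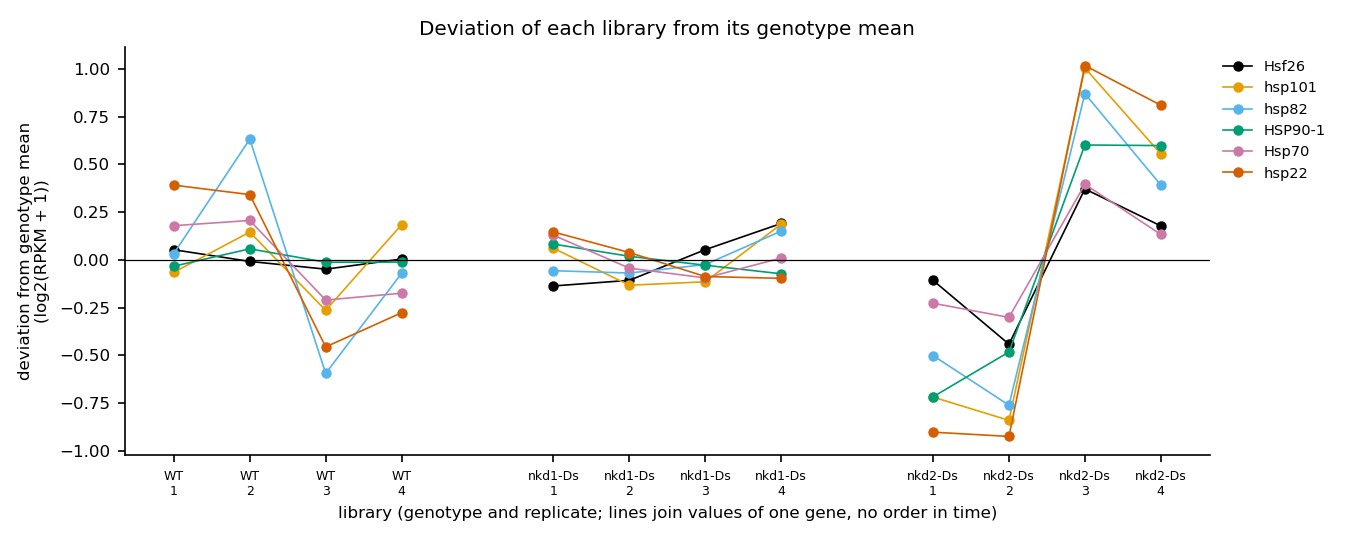
Deviation of each library from its genotype mean on the log2(RPKM + 1) scale for the 6 genes, with a line per gene joining the 4 libraries of a genotype. In nkd2-Ds all 6 genes are below the mean in replicates 1 and 2 and above it in replicates 3 and 4, whereas the libraries labelled nkd1-Ds stay within a narrow band.

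The 6 genes rose by unequal amounts, and the makeup of their families differed with them. A family here holds only the genes found by symbol, so the shares may not be those of whole families. The shares also follow in part from the choice of the 6 genes on levels in these libraries, so nothing is read from them. HSP90-2 (GRMZM2G012631), the third HSP90 gene listed, held 84.3% to 86.6% of the summed RPKM of the 3 HSP90 genes in WT. Its share was 34.9% to 37.1% in the libraries labelled nkd1-Ds and 73.3%, 74.4%, 60.9% and 58.9% in nkd2-Ds. The summed level of the 3 genes was 102.2 to 113.9 RPKM in WT, 441.0 to 464.3 RPKM in libraries labelled nkd1-Ds and 119.8 to 213.1 RPKM in nkd2-Ds. hsp82 was 4.51% to 19.1% of the level of HSP90-1 in WT, 55.7% to 71.7% in libraries labelled nkd1-Ds and 10.8% to 18.5% in nkd2-Ds. By this ratio the nkd2-Ds libraries lay within the WT range. How reads that match several close relatives were counted is not stated by the labels or files, and the split within a family is therefore uncertain.

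The shares for HSP70 and for small heat shock proteins are under the same limit, as each family holds a picked gene. hsp70-4 (GRMZM2G340251) held 67.8% to 75.1% of the summed RPKM of the 3 HSP70 genes in WT, 33.7% to 37.9% in libraries labelled nkd1-Ds and 54.2% to 62.8% in nkd2-Ds. hsp22 held 10.1% to 14.9% of the summed RPKM of 6 small heat shock protein genes in WT, 45.7% to 52.1% in the libraries labelled nkd1-Ds and 14.9%, 18.2%, 28.0% and 31.3% in nkd2-Ds.

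The other heat shock and chaperone genes, matched by symbol, were tested with limma over all 26706 genes. In the libraries labelled nkd1-Ds, 26 of 41 tested were higher than WT, 9 were lower and 6 were not called, at a median log2 difference of 0.34. Over all genes 26.5% were called higher and 29.2% lower, at a median of -0.02. In nkd2-Ds 10 of the 41 were higher than WT, 6 lower and 25 not called, at a median of 0.05, beside 12% and 13.6% of all genes. Directly against the libraries labelled nkd1-Ds, nkd2-Ds had 4 higher and 24 lower at a median of -0.29, beside 21.6% and 20.2% of all genes. Scaling by total reads moved the median of all genes by 0.44 in nkd1-Ds against WT, by 0.13 in nkd2-Ds against WT and by -0.31 between the mutants. With it, 32 of 39 were higher and 2 lower in the first comparison, beside 16003 higher and 1874 lower of all genes where the authors' scale gave 7077 and 7800.

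Of the 8 other heat shock factor genes tested, 5 rose and 2 fell in the libraries labelled nkd1-Ds, beside 26.5% and 29.2% of all genes. With total-reads scaling 6 rose and 0 fell, beside 62.9% and 7.36% of all genes. Hsf03 (GRMZM2G164909) had 0.575, 1.09, 0.852 and 0.874 RPKM in WT and 4.48, 3.47, 3.79 and 4.72 RPKM in libraries labelled nkd1-Ds. It had 1.75, 1.27, 3.07 and 3.42 RPKM in nkd2-Ds, so that both mutants lay above WT. Its log2 difference from WT was 1.47 ± 0.186 (limma adjusted p = 2.13e-05) and 0.82 ± 0.186 (adjusted p = 0.00556). Hsf17 rose by 0.70 ± 0.103 (adjusted p = 7.48e-05) and by 0.41 ± 0.103 (adjusted p = 0.0104). Both genes identified as Hsf05 rose in the libraries labelled nkd1-Ds, at 0.50 ± 0.131 for GRMZM2G132971 and 0.44 ± 0.12 for GRMZM2G133023. Hsf01, the most abundant of the factors matched by symbol, rose by 0.30 ± 0.0752 (adjusted p = 0.00445). The 2 that fell were HSF29 and Hsf12, named after their values were seen, at -0.26 and -0.31, and neither was called lower with total-reads scaling.

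All 5 other small heat shock protein genes tested rose in the libraries labelled nkd1-Ds, under each scaling tried. Of all genes, 26.5% were called higher on the authors' scale, 62.9% with total-reads scaling and 27.2% with quantile normalization. hsp18c (GRMZM2G034157) had 8.41, 10.3, 7.86 and 9.58 RPKM in WT, 49.1, 28.9, 37.7 and 42.8 RPKM in libraries labelled nkd1-Ds and 16.0, 11.8, 25.3 and 18.9 RPKM in nkd2-Ds. The 3 genotypes did not overlap, with nkd2-Ds between the others. The log2 difference of hsp18c from WT was 1.999 ± 0.195 (limma adjusted p = 2.13e-06) and 0.88 ± 0.195 (adjusted p = 0.00504). hsp18a (GRMZM2G404249) had 37.9, 40.8, 27.1 and 30.5 RPKM in WT, 93.3, 78.9, 81.0 and 88.0 RPKM in libraries labelled nkd1-Ds, and 44.4, 33.3, 96.5 and 64.5 RPKM in nkd2-Ds. Replicate 3 of nkd2-Ds was above every library labelled nkd1-Ds, and replicate 2 within the WT range. Its difference in nkd2-Ds, 0.70 ± 0.247, was not called (adjusted p = 0.0541), and it was called without replicate 2 (adjusted p = 0.007) or without replicate 1 (adjusted p = 0.0444). hsp26 and hsp18f rose by 1.21 ± 0.193 and 1.09 ± 0.151 in the libraries labelled nkd1-Ds. Their differences in nkd2-Ds were 0.27 and 0.04, and neither was called (adjusted p = 0.335 and 0.872). hsp17.2, named after its values were seen, was low, with 0.707, 0.876, 0.130 and 0.200 RPKM in WT from 3 to 23 reads. It had 1.38, 1.69, 1.52 and 2.07 RPKM in libraries labelled nkd1-Ds and 1.68, 1.11, 4.13 and 2.91 RPKM in nkd2-Ds, so that the mutants overlapped. It rose by 0.88 ± 0.244 (adjusted p = 0.00785) and by 1.18 ± 0.244 (adjusted p = 0.00323), and the difference between the mutants was not called (adjusted p = 0.352).

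Outside the factors and small heat shock proteins, hsp70-5 (GRMZM5G802801) was most like the 6 genes in how it varied within genotypes, by the measure given further on. It had 15, 16.6, 14.7 and 13.6 RPKM in WT, 90.03, 83.5, 72.7 and 73.8 RPKM in libraries labelled nkd1-Ds and 16.5, 17.8, 43.5 and 33.2 RPKM in nkd2-Ds. Replicate 1 of nkd2-Ds lay within the WT range and replicates 3 and 4 well above it. The rise was 2.34 ± 0.236 (limma adjusted p = 2.78e-06) in the libraries labelled nkd1-Ds and 0.74 ± 0.236 (adjusted p = 0.0348) in nkd2-Ds. The latter was lost without nkd2-Ds replicate 3 (adjusted p = 0.0791) or 4 (adjusted p = 0.0961) and without any 1 of the WT libraries (adjusted p from 0.0502 to 0.0832). That call was also lost with the 8 compared samples alone (adjusted p = 0.077) and with replicate number as a block (adjusted p = 0.0574).

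hsp70-4, the most abundant in WT of the HSP70 genes matched by symbol, went the other way on the authors' scale. Its level fell by 0.48 (log2; limma adjusted p = 0.00028) in the libraries labelled nkd1-Ds and by 0.33 (adjusted p = 0.0109) in nkd2-Ds. With total-reads scaling the former became 0.07 (adjusted p = 0.649) and the latter -0.16 (adjusted p = 0.397). HSP90-2 rose by 0.79 ± 0.0965 (adjusted p = 1.6e-05) in the libraries labelled nkd1-Ds, and in nkd2-Ds its difference of 0.21 was not called (adjusted p = 0.133), though it was without replicate 1 (adjusted p = 0.0115). The co-chaperone genes Fes1B, an HSP70 nucleotide exchange factor, and SGT1, an HSP90 partner, rose by 0.76 ± 0.075 and 0.74 ± 0.151 in the libraries labelled nkd1-Ds. Of 4 chaperonin genes, CPN60II and CHL-CPN10 rose there, by 0.49 and 0.42, and the CPN60I gene GRMZM2G458208 was at -0.01 (adjusted p = 0.895). The ascorbate peroxidase gene apx2 fell by 0.17 (adjusted p = 0.0222), and with total-reads scaling it rose by 0.37.

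The chaperones of the endoplasmic reticulum (ER), which fold secreted and storage proteins, moved in both directions. Of 18 tested, 10 rose and 5 fell in the libraries labelled nkd1-Ds, 55.6% and 27.8% beside the 26.5% and 29.2% of all genes. In nkd2-Ds 3 rose and 3 fell, 16.7% each and near the 12% and 13.6% of all genes. With total-reads scaling 13 of 17 rose and 2 fell in the former, beside 62.9% and 7.36% of all genes, and 4 rose and 2 fell in the latter, beside 12.3% and 4.55%. The calreticulin gene CRT (GRMZM2G358059) had 57.6 to 64.6 RPKM in WT, 141.0 to 156.7 RPKM in libraries labelled nkd1-Ds and 75.6 to 88.5 RPKM in nkd2-Ds. It rose by 1.24 ± 0.0619 (limma adjusted p = 4.63e-09) and 0.38 ± 0.0619 (adjusted p = 0.00051). bip1, the ER-resident HSP70, rose by 0.67 ± 0.0838 and 0.39 ± 0.0838. The protein disulfide isomerase gene pdi rose by 0.30 ± 0.11 (adjusted p = 0.0317) in the libraries labelled nkd1-Ds, where its range overlapped that of WT. That call was lost with replicate number as a block (adjusted p = 0.0515) and without WT replicate 1, 2 or 4 or nkd1-Ds replicate 1 or 2 (adjusted p from 0.0584 to 0.0907). Both genes identified as PDIL5-1 fell in both mutants, by 2.12 and 2.22 for GRMZM2G443655 and by 1.21 and 1.04 for GRMZM2G073628.

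**Figure D4:**
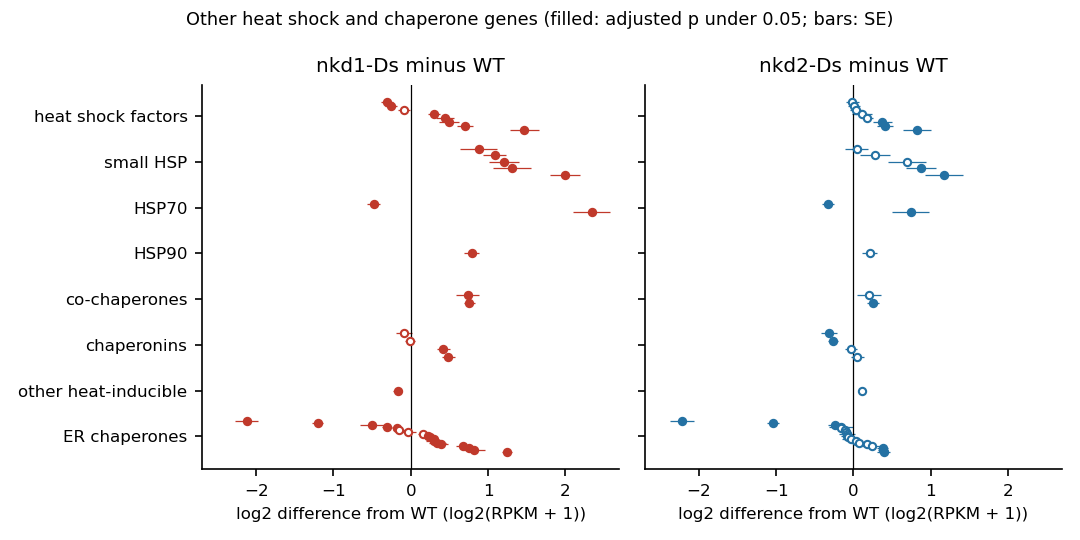
Log2 difference from WT of the 41 other heat shock and chaperone genes tested, by class, in the libraries labelled nkd1-Ds (left) and in nkd2-Ds (right). Bars are SE, and filled points have a limma adjusted p under 0.05. The small heat shock proteins lie to the right of 0, and the ER chaperones lie on both sides.

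The other genes were also set against the 6 by how they varied within genotypes. The likeness of a gene to the 6 was taken as its mean correlation with them over the deviations of the 12 libraries. Among the 6 themselves the median correlation was 0.868, and 0.364 without the nkd2-Ds libraries. Likeness without those libraries was not computed, so the values below may rest largely on nkd2-Ds. All 16 other genes of the factor, small heat shock protein, HSP70 and HSP90 classes had a value above 0, from 0.245 to 0.895 with a median of 0.733. Of the 18 ER chaperone genes 13 were below 0, with a median of -0.30 and a lowest value of -0.78 for pdi12. Values below 0 were not limited to the ER, since 3 of 4 chaperonin genes (median -0.26) and SGT1 (-0.46) also had them. Over all other genes tested the median was -0.003 and the 99th percentile 0.772. pdi, at -0.66, had 749.8, 631.5, 569.6 and 534.7 RPKM in nkd2-Ds replicates 1 to 4, so it was highest where the 6 genes were low. In nkd2-Ds, replicates 3 and 4 were both above replicates 1 and 2 for 7 of the 9 other heat shock factor genes listed and 4 of the 5 small heat shock protein genes, and for 2 of the 18 ER chaperone genes. Over all genes tested that share was 21.6%. Replicates 3 and 4 were both below for 9 of the 18 ER chaperone genes, beside 24.1% of all genes tested.

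**Figure D5:**
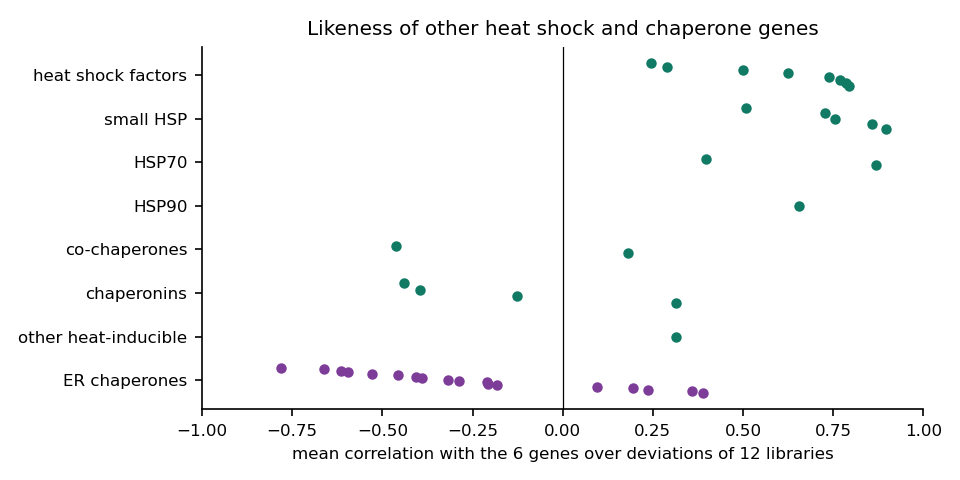
Mean correlation of each other heat shock and chaperone gene with the 6 genes, over deviations of the 12 libraries from their genotype means, by class (a point per gene). Heat shock factors, small heat shock proteins, HSP70 and HSP90 genes lie above 0, and 13 of 18 ER chaperone genes (purple) lie below it.

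The 10 genes most like the 6 in this measure had values from 0.893 to 0.922, and 0.633% of all other genes reached at least 0.8. They were GRMZM2G097135, ERTC, MYBE1, o2, GRMZM2G115839, GRMZM2G162968, GRMZM2G178289, hsp18a, GRMZM2G033570 and GRMZM2G012455. GRMZM2G097135 had 1.96, 2.47, 1.15 and 1.84 RPKM in WT, 54.5 to 66.4 RPKM in the libraries labelled nkd1-Ds and 5.42, 4.36, 18.5 and 14.2 RPKM in nkd2-Ds. ERTC (GRMZM2G051135) had 1.78 to 3.18 RPKM in WT, 58.1 to 65.6 RPKM in the libraries labelled nkd1-Ds, and 5.52, 4.89, 15.4 and 12.1 RPKM in nkd2-Ds. Both thus stood in the same genotype order as the chaperone genes, and their log2 differences from WT were 4.47 and 4.05 in the libraries labelled nkd1-Ds and 1.84 and 1.36 in nkd2-Ds, each called by limma (adjusted p from 7.66e-08 to 0.00249).

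Likeness within genotypes did not carry over to the differences between them for every gene. o2, the bZIP activator of zein genes, had 254.4 to 276.6 RPKM in WT, 357.8 to 386.6 RPKM in the libraries labelled nkd1-Ds and 309.0, 297.5, 430.8 and 377.1 RPKM in nkd2-Ds. Its nkd2-Ds replicate 3 was above every library labelled nkd1-Ds, and the direct difference between the mutants was -0.09 (limma adjusted p = 0.521). GRMZM2G033570 fell by 0.64 on the log2 scale in the libraries labelled nkd1-Ds (adjusted p = 2.01e-05), and MYBE1 was not called in that comparison (adjusted p = 0.14).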

How the data were processed

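Per the labels' protocols, polyadenylated RNA was made into libraries with a strand-specific kit. The submitters' processing notes list FastQC, featureCounts, TopHat2 2.1.1 and Cufflinks 2.2.1, without saying what each did. Neither genome build, annotation nor strand setting is given in the sources used here, so no coordinates or sequences are printed. The deposited values are RPKM, a unit inferred from the numbers: once each library was multiplied by its own factor, the values of a gene were whole multiples of a single step. For 34307 of the 34307 genes above 0 these steps gave back whole reads, to within 0.02 reads. The library factors, 27.3 to 40.5 megareads, are not the library totals.

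A limma 3.58.1 model (R 4.3.3) with a trend of variance on mean was fitted to log2(RPKM + 1) of the 26706 genes that averaged 1 RPKM or more in any genotype. The model held a term for genotype and no other, and used the 12 samples together. A call is a two-sided Benjamini-Hochberg adjusted p under 0.05 over all genes. The procedure was tested on simulated data. Genotype and replicate number came from the labels, and the series describes the samples as biological replicates. No pair of libraries was a duplicate, since chi-square per gene within a genotype was 8.04 to 85.9. Spacing was uneven: in WT it was 8.04 between replicates 1 and 2, 9.38 between 3 and 4, and 24.1 to 30.5 otherwise. In the libraries labelled nkd1-Ds it was 8.98 between replicates 1 and 2, 8.46 between 3 and 4, and 9.21 to 15.2 otherwise. In nkd2-Ds it was 10.6 between replicates 3 and 4 but 66.5 and 85.9 between these and replicate 1. Replicate 2 was at 25.0, 22.4 and 32.6 from replicates 1, 3 and 4.

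The 6 genes and the gene lists were chosen with earlier results of these data known. Other heat shock and chaperone genes were matched by symbol through a RefSeq gene table (15236 of 34348 identifiers matched), which found 42, of which HSF6 did not pass the filter. Those named are, per class, up to 3 called genes with the largest absolute log2 difference in the libraries labelled nkd1-Ds and up to 2 with the highest mean level, plus the 10 genes most like the 6 by correlation. The alternatives were another pseudocount, no filter, total-reads and quantile scaling, the 8 compared samples alone, replicate number as a block, each library left out, and limma voom on the recovered reads, the last chosen after seeing the data. Other scales for the positions, and correlations without WT or without nkd1-Ds libraries, were also chosen then.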

Additional observations from a re-analysis of the deposited data

Results flagged for a closer look

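In 1 of the 141 groups of 4 libraries looked at, a single library stood apart by Dixon's criterion, which chance alone meets in about 5% of groups. GRMZM2G178289, a gene chosen for its likeness to the heat shock genes, had 0.408 RPKM in WT replicate 3, where the other WT libraries had 0.588, 0.566 and 0.596 RPKM.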

How the results depend on the processing

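For the 6 genes, 329 of 342 differences recomputed over 19 alternatives moved by less than the spread between replicates, 13 moved by more and none of the 342 changed sign. The moved ones were larger rises or differences of low genes: hsp82 in the libraries labelled nkd1-Ds against WT was 6.19 with log2(RPKM + 0.1) and 6.27 with limma voom, and Hsf26 was 4.22 and 4.42. Total-reads scaling gave 3.98 for hsp101, 4.06 for HSP90-1 and 2.18 for the Hsp70 gene. The median pair correlation was 0.766 to 0.904 with each library left out, 0.941 without WT, 0.900 without nkd1-Ds and 0.364 without nkd2-Ds. For named other genes 1818 of 1932 values kept direction and call, 86 lost the call, 24 gained it and 4 changed sign. The last were all under total-reads scaling: in nkd1-Ds against WT hsp70-4 (0.066), CPN60I GRMZM2G458208 (0.53) and apx2 (0.37), and in nkd2-Ds against nkd1-Ds apx2 (-0.10). Of 6 counts of calls over all genes, 5 moved by over 1.5 times with that scaling: nkd1-Ds against WT 16003 higher and 1874 lower (7077 and 7800 on the authors' scale), nkd2-Ds against WT 1158 lower (3624), nkd2-Ds against nkd1-Ds 1326 higher and 12346 lower (5759 and 5398). The count higher in nkd2-Ds against WT was 3135 (3199). For other heat shock and chaperone genes it gave 2 lower in nkd1-Ds against WT (9), 2 lower in nkd2-Ds against WT (6), and 0 higher in nkd2-Ds against nkd1-Ds (4) by limma, also 0 at an unadjusted p under 0.05 and 4 by limma voom. Quantile normalization gave 3 lower in nkd2-Ds against WT. The cause of these moves was not tested. With each library left out, calls over all genes in the 3 comparisons in turn were 6504 to 7164, 2562 to 3242 and 4983 to 5712 higher, and 7131 to 7909, 2778 to 3737 and 4701 to 5333 lower. Those of other heat shock and chaperone genes were 25 to 26, 7 to 12 and 3 to 5 higher, and 7 to 9, 4 to 6 and 19 to 24 lower. Same-numbered libraries of different genotypes did not vary together (correlations of deviations -0.28 to 0.125), and 3 of 24 matched their own number best. No pairing by number was therefore seen. Whether groups of numbers share a batch was not tested. With replicate number as a block the counts of other heat shock and chaperone genes were 25, 7 and 4 higher and 8, 4 and 22 lower, and those of all genes 6812, 2819 and 5350 higher and 7470, 3220 and 5015 lower. The planned edgeR and DESeq2 fits were not run, since the deposited unit is RPKM, and the planned search for promoter motifs was not run, since no promoter sequence was at hand. At 19 to 81 reads for Hsf26 in nkd2-Ds, and 30 to 38 in WT, counting error limits what can be told between these groups.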
